A study of Mus musculus with 20 samples.

Results

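Long noncoding RNA (lncRNA) genes whose start lies away from every protein-coding start were examined for H3K27ac, H3K4me1, and H3K4me3 in bone marrow progenitor cells of 4 genotypes. The members were the autosomal genes that GENCODE release M21 calls lincRNA or antisense and whose start is more than 3000 bp from the start of every protein-coding transcript. They numbered 6425, of 8122 lncRNA genes and 51229 autosomal genes of all types: 4681 lincRNA and 1744 antisense genes. Each was represented by a window of 1000 bp on either side of its annotated start. The rule used only the annotation and no peak value. The median distance to the nearest coding start was 52.4 kb. Of the starts, 4845 lay outside protein-coding genes, 1506 lay within a coding gene on its opposite strand, and 74 lay within one on the same strand. The windows were not all separate, since 288 members had a window that overlapped that of another member, and 190 windows also held the start of a gene of another type.

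The cells were Lin- bone marrow cells, the fraction left after removal of cells with markers of mature lineages, at a purity above 80%. The study asked how loss of the acetyltransferase p300, encoded by Ep300, acts in cells that lack the DNA demethylase Tet2. The 4 groups were WT (Ep300 fl/fl), Ep300Δ/Δ (Mx1-Cre;Ep300 fl/fl), Tet2-/- (Ep300 fl/fl;Tet2-/-), and Ep300Δ/ΔTet2-/- (Mx1-Cre;Ep300 fl/fl;Tet2-/-). According to the methods, every group received poly(I:C) at 6 to 8 weeks of age, which turns on the interferon-inducible Mx1-Cre. WT and Tet2-/- mice therefore carried floxed Ep300 without Cre. The Mx1 promoter also responds outside blood cells, Tet2 was absent from the germline, and the sources used here do not state whether animals were pooled. There was 1 library for each genotype and mark, so the variation between animals is not measured and the genotypes were compared without a test. The 12 peak lists held 18327 to 29659 peaks for H3K27ac, 25012 to 27807 for H3K4me3, and 90738 to 107392 for H3K4me1, and sequencing depth is unknown from such lists. At the starts of 12 progenitor genes, among them Kit, Spi1, and Runx1, H3K4me3 was present in all 4 genotypes. Of 6 genes of mature lineages 1 or 2 carried it, and of 8 genes of other tissues none did, except Neurod1 in Ep300Δ/ΔTet2-/- cells.

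lncRNAs are transcripts without a long open reading frame, made by RNA polymerase II and often spliced. H3K4me3 marks starts where polymerase initiates often, H3K4me1 marks enhancers, and H3K27ac, which p300 and its relative CBP deposit, marks promoters and enhancers that are active. Some lncRNAs start at a promoter of the coding type, rich in CpG dinucleotides, and others start inside enhancers, with much H3K4me1 and little H3K4me3.

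The sequences around 6 starts that differ in their marks are given below. Each runs from 250 bases before the start to 50 bases from the start on, 5′ to 3′ on the strand of the gene, in the GRCm38 (mm10) assembly. Capitals mark exact matches, on either strand and with overlaps allowed, to 6 short motifs. The GC box was searched as GGGCGG, the second promoter element by its name, CCAAT, and the TATA element as TATAAA. Letters at the core of the sites of ETS factors were searched as CCGGAAG, those of RUNX factors as TGTGGT, and those of GATA factors as AGATAA. Snhg6 and Lockd had H3K4me3 and H3K27ac in all genotypes. Gm29264 and Gm31450 had H3K27ac only where Ep300 was intact. H3K4me3 was present in all genotypes at Gm29264 and in none at Gm31450. Gm33370 had H3K27ac and H3K4me1 without H3K4me3 in all genotypes, and Bloodlinc had H3K27ac and H3K4me3 only where Tet2 was intact. The Snhg6 sequence lies at chr1:9944069-9944368 on the minus strand, Lockd at chr6:134928842-134929141 on the plus strand, Gm29264 at chr5:149247633-149247932 on the minus strand, Gm31450 at chr13:15931432-15931731 on the plus strand, Gm33370 at chr5:96922126-96922425 on the minus strand, and Bloodlinc at chr11:102376971-102377270 on the minus strand. None of the 6 starts lies in a protein-coding gene.
Snhg6: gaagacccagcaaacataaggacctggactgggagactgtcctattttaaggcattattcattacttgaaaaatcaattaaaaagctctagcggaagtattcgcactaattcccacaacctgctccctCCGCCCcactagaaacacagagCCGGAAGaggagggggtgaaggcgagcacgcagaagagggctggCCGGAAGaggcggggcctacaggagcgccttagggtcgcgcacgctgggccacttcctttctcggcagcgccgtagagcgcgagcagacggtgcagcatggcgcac
Lockd: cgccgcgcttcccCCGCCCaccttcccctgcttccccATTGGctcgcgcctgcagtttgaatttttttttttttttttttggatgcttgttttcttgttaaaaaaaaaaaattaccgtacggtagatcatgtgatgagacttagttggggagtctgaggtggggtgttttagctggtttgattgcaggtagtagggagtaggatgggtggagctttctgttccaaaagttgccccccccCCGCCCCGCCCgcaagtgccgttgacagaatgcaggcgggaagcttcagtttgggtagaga
Gm29264: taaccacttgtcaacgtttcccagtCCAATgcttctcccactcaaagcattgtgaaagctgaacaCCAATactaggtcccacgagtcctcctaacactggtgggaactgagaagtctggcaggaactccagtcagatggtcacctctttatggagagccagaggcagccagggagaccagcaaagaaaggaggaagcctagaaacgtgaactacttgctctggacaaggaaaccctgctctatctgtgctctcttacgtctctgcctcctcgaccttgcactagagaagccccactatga
Gm31450: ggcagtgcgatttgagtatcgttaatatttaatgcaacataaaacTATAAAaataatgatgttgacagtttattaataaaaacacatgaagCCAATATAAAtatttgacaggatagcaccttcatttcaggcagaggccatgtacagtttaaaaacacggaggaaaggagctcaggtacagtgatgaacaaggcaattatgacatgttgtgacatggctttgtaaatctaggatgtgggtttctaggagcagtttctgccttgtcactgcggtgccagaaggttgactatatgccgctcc
Gm33370: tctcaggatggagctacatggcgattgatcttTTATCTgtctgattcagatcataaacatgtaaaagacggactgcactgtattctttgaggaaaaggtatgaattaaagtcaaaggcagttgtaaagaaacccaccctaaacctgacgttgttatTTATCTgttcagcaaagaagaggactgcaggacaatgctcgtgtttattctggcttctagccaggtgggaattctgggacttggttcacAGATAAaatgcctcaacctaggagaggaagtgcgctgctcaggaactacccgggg
Bloodlinc: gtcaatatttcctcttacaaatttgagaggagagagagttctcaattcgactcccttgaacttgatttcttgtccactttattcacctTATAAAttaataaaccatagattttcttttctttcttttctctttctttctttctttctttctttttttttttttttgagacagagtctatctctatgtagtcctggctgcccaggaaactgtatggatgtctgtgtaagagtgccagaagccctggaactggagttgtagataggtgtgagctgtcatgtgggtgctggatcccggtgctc
The Snhg6 sequence holds 19 CpG dinucleotides, a GC box, and 2 ETS matches, and that of Lockd holds 13 CpGs and 3 GC boxes. The other 4 sequences hold 2 to 6 CpGs and no GC box. The 3 capitalized runs at Gm33370 are all GATA matches, whereas Gm29264 has 2 CCAAT boxes, Gm31450 has a CCAAT box that overlaps a TATA box besides a further TATA box, and Bloodlinc has a single TATA box far upstream of its start. A match is a description of the letters and not evidence that a factor binds.

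Most of these starts carried no mark. No peak of any mark in any genotype was found at 4850 of the 6425 members (75.5%; exact Clopper-Pearson 95% interval, 74.4% to 76.5%), as compared with 33.2% of 20807 protein-coding starts (32.6% to 33.8%) and 59.8% of all gene starts. These intervals cover counting error only. In WT cells, 544 members had H3K4me3 (8.47%; 7.80% to 9.17%), 420 had H3K27ac (6.54%; 5.94% to 7.17%), and 1150 had H3K4me1 (17.9%; 17% to 18.9%). Protein-coding starts had H3K4me3 in 57.8%, H3K27ac in 43.1%, and H3K4me1 in 50.4% of cases in the same lists. The order of the marks thus differed: H3K4me1 was the most frequent mark at lncRNA starts and H3K4me3 the most frequent at coding starts. The 1697 lncRNA genes left out by the rule, which start within 3000 bp of a coding start, resembled coding genes, with H3K4me3 at 61.6% (59.3% to 64.0%). The marks at the members were centered on the annotated start. In WT cells a peak of H3K4me3 covered part of the 500 bp after the start at 7.05% of members and part of the bin from 2000 to 1500 bp upstream at 1.26%, H3K27ac did so at 4.95% and 1.60%, and H3K4me1 at 12.5% and 6.85%. That upstream bin lies within the 3000 bp that the rule keeps free of coding starts. From 5000 to 4500 bp upstream the shares were 2.29%, 1.85%, and 6.72%. H3K4me1 therefore stood on a higher level around the starts than the other marks did.

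**Figure D1:**
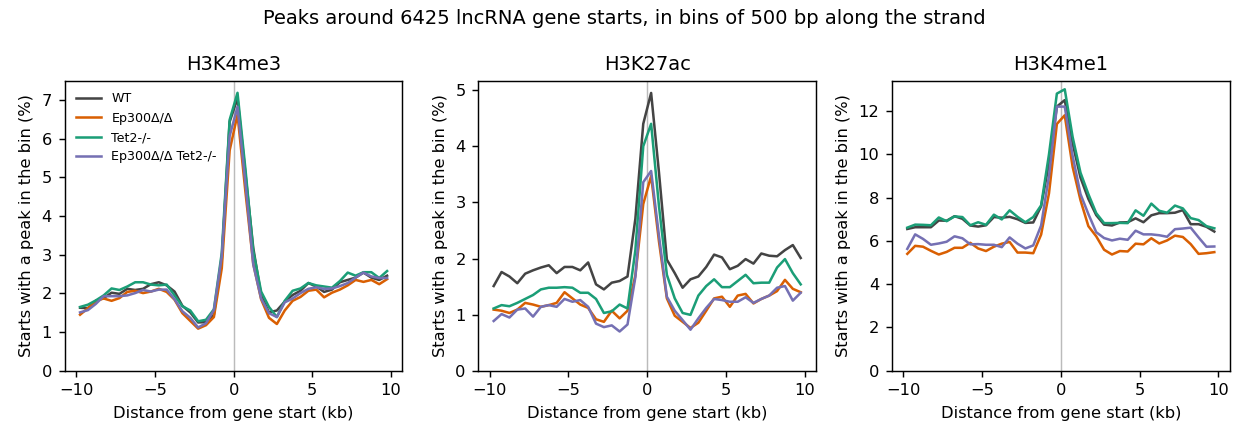
Share of the 6425 lncRNA starts with a peak in each bin of 500 bp from 10 kb upstream to 10 kb downstream, along the strand of the gene, for 3 marks (panels) and 4 genotypes (lines, 1 library each). All 12 lines peak at the start, where H3K4me3 in WT cells reaches 7.05% and H3K4me1 12.5%, and the H3K27ac line of WT cells lies above the others both at the start and on either side of it.

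Marked members showed several combinations of marks in WT cells, of which H3K4me1 alone was the most frequent. All 3 marks were present at 252 members (3.92%; all starts, 16.4%) and H3K4me3 with H3K27ac at a further 42 (0.654%; all starts, 5.29%), which is the combination of an active promoter. H3K4me3 without H3K27ac was present at 250 members, of which 181 had H3K4me1 as well (2.82%; all starts, 7.01%) and 69 did not (1.07%; all starts, 1.41%). H3K27ac with H3K4me1 but without H3K4me3, the combination of an active enhancer, was present at 119 members (1.85%; all starts, 0.693%; coding starts, 0.413%), and H3K4me1 alone at 598 (9.31%; all starts, 5.89%; coding starts, 4.97%). H3K27ac accompanied H3K4me3 less often at lncRNA starts than at coding starts: 54.0% of members with H3K4me3 in WT cells also had H3K27ac (49.8% to 58.3%), against 73.6% of such coding starts (72.8% to 74.4%). In the other genotypes it was 43.4% (39.1% to 47.7%) in Ep300Δ/Δ, 48.7% (44.5% to 52.9%) in Tet2-/-, and 43.5% (39.3% to 47.8%) in Ep300Δ/ΔTet2-/- cells, against 69.4%, 71.8%, and 66.8% of coding starts. The members' share was below that of coding starts in all 4 genotypes, with intervals that did not overlap.

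Marked and unmarked starts differed in sequence. The ratio of observed to expected CpGs in the window had a median of 0.351 at members with H3K4me3 and H3K27ac, 0.352 at those with H3K4me3 without H3K27ac, 0.211 at those with H3K27ac without H3K4me3, and 0.201 at members with no mark in WT cells. Windows with both a ratio of at least 0.6 and a GC content of at least 50%, the usual sign of a CpG island, numbered 84 (1.31%) among the members and 6405 (30.8%) among coding starts. H3K4me3 was present at 63.1% of these 84 members (51.9% to 73.4%) and at 7.74% of the others (7.10% to 8.43%). With increasing ratio, the share of members with H3K4me3 rose from 0.208% below 0.1 to 6.39% between 0.2 and 0.3, 30.3% between 0.4 and 0.5, and 62.8% between 0.6 and 0.8. Coding starts of the same ratio had more at every step, at 2.77%, 21.2%, 74.0%, and 90.5% for these bins. H3K27ac also became more frequent along this scale, from 1.04% to 41.5% of members.

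Some motifs also differed in frequency between marked and unmarked starts. The GC box, whose letters include a CpG, was present in the window of the printed length around the start of 28.9% of members with H3K4me3 in WT cells (25.1% to 32.9%) and of 6.77% of those without any mark (6.10% to 7.49%), against 23.6% of all gene starts. The ETS letters, which also hold a CpG, were found in 8.46% (6.26% to 11.1%) and 2.70% (2.27% to 3.17%), against 6.11% of all. The TATA box went the other way, at 9.01% (6.74% to 11.7%) and 17.3% (16.3% to 18.3%), against 17.2% of all. At members with H3K27ac or H3K4me1 but no H3K4me3, these 3 stood at 8.98%, 4.01%, and 14.8%, nearer to unmarked than to H3K4me3-marked starts. The CCAAT box was found in 32.4% of members with H3K4me3 and 38.0% of those without a mark (38.2% of all), RUNX letters in 17.6% and 22.5% (18.6% of all), and GATA letters in 14.2% and 16.0% (13.6% of all). At members with H3K27ac or H3K4me1 but no H3K4me3, these stood at 30.2%, 23.6%, and 13.8%.

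Place in the genome went with the marks as well. H3K4me3 was present in WT cells at 13.4% of members that start 3 to 10 kb from a coding start (11.2% to 15.9%), 11.6% at 10 to 50 kb, 6.97% at 50 to 200 kb, and 1.68% (1.03% to 2.58%) farther away. H3K27ac fell from 9.69% to 0.754% and H3K4me1 from 27.5% to 4.69% over the same classes. The antisense genes had H3K4me1 more often than the lincRNA genes, at 21.7% (19.8% to 23.7%) against 16.5% (15.4% to 17.6%), whereas H3K4me3 was at 7.97% and 8.65%, with overlapping intervals. Starts within repeats, as marked in the assembly, had H3K4me3 at 4.10% (3.09% to 5.31%) and other starts at 9.59% (8.80% to 10.4%). The 107 members that hold a gene for a microRNA or a small nucleolar RNA (snoRNA), which are processed from the host transcript, had H3K4me3 at 22.4% (14.9% to 31.5%), as compared with 8.23% of the others. Across the 19 autosomes, the share with H3K4me3 ran from 5.11% on chromosome 8 to 15.4% on chromosome 17. Members near a marked coding start were more often marked themselves: the nearest coding start had H3K27ac in WT cells for 56.9% of members with H3K27ac (52.0% to 61.7%) and for 34.4% of those without it (33.2% to 35.7%).

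Over the 4 genotypes, the number of members with H3K4me3 stayed between 530 and 575, at 544 in WT, 530 in Ep300Δ/Δ, 575 in Tet2-/-, and 545 in Ep300Δ/ΔTet2-/- cells. H3K27ac was present at 420 members in WT, 301 in Ep300Δ/Δ (4.68%; 4.18% to 5.23%), 364 in Tet2-/- (5.67%; 5.11% to 6.26%), and 301 in Ep300Δ/ΔTet2-/- cells (4.68%; 4.18% to 5.23%). H3K4me1 was present at 1150, 1065, 1148, and 1144 members in the same order. Acetylation was the mark whose count differed most, and both lists from cells with deleted Ep300 held the fewest acetylated members. The same lists were lowest over all gene starts, of which 22.5%, 21.0%, 21.7%, and 20.1% were acetylated in the order WT, Ep300Δ/Δ, Tet2-/-, and Ep300Δ/ΔTet2-/-. That order depended on the length of the lists: with the 18327 strongest H3K27ac peaks of each genotype by −log10 q, acetylated members numbered 296 in WT, 257 in Ep300Δ/Δ, 277 in Tet2-/-, and 301 in Ep300Δ/ΔTet2-/- cells. These are calls, and fewer cells with a mark cannot be told apart from less of the mark per cell. H3K4me3 was present in all 4 genotypes at 435 members, H3K27ac at 221, and H3K4me1 at 791. Both H3K4me3 and H3K27ac were present in all genotypes at 178 members (2.77%; 2.38% to 3.20%), against 18.2% of all starts and 36.3% of coding starts, and 122 members carried all 3 marks in all 12 lists (1.90%; all starts, 9.97%; coding starts, 19.7%).

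**Figure D2:**
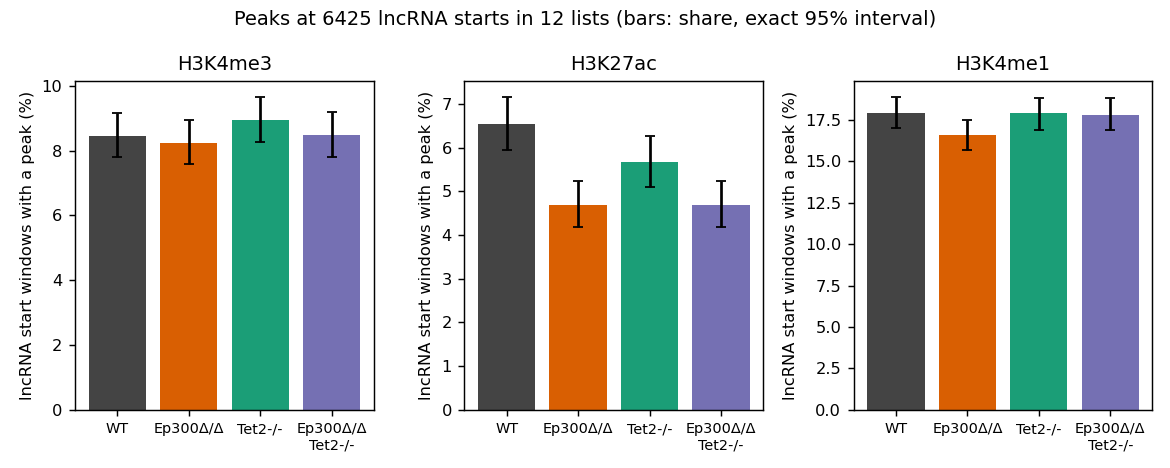
Share of the 6425 lncRNA start windows with a peak of H3K4me3, H3K27ac, or H3K4me1 (panels) in each genotype (bars, 1 library each), with exact 95% intervals that cover counting error only. H3K27ac stands at 6.54% in WT and 4.68% in both lists with deleted Ep300, an order that changes with lists of equal length (301 members in Ep300Δ/ΔTet2-/- cells against 296 in WT), while H3K4me3 stays between 8.25% and 8.95%.

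Among 8 members on a list of widely expressed lncRNAs, 7 had H3K4me3 in every genotype and 4 had H3K27ac in WT cells. Peak fold enrichment over the H3 library is given below for each list in the order WT, Ep300Δ/Δ, Tet2-/-, and Ep300Δ/ΔTet2-/-, and it ranks regions within a list only. Malat1 (ENSMUSG00000092341.3, chromosome 19, start at 5802672, minus strand), an abundant nuclear RNA found at splicing speckles, had H3K27ac at 69.8, 39.5, 43.3, and 24.2, the highest value of the members in the WT list. Its neighbor Neat1, the scaffold RNA of paraspeckles, had H3K27ac at 30.8, 25.9, 19.4, and 34.8. Both starts carried H3K4me3 and H3K27ac in all lists. H3K4me1 was missing at both in Tet2-/- cells and at Malat1 in WT cells as well. Pvt1, the neighbor of Myc, had H3K4me3 at 44.9, 34.5, 23.1, and 26.2, but H3K27ac only where Tet2 was absent, at 5.01 in Tet2-/- and 4.73 in Ep300Δ/ΔTet2-/- cells. The start of 2900097C17Rik, also called Norad, which binds Pumilio proteins, kept H3K4me3 in all lists and had H3K27ac in WT cells alone, at 3.05. Cyrano, listed as 1700020I14Rik, which directs the decay of a microRNA, had both promoter marks in every list, with H3K27ac at 15.5, 18.6, 12.2, and 11.1. Trp53cor1 (lincRNA-p21), a target of p53, had H3K4me3 and H3K4me1 in every list and H3K27ac in none, whereas Miat had H3K4me1 alone. Lncpint, another p53 target, had H3K27ac in Ep300Δ/Δ cells alone, at 5.21.

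Imprinted lncRNAs, which are made from 1 parental copy, divided by locus. H19, Meg3, and Mirg had no peak of any mark in any list. Kcnq1ot1, the RNA that silences its neighbors on the paternal chromosome 7, had H3K4me3 at 35.7, 26.3, 52.7, and 27 and H3K27ac at 16.7, 11.6, 11.8, and 7.67, without H3K4me1. Airn, which represses Igf2r, had H3K4me3 at 15.2, 11.4, 12.6, and 10.1 and H3K4me1 in every list but H3K27ac in none. Gm16299 stood on the list, but its imprinting was not checked here. It had H3K4me3 in all genotypes and H3K27ac in WT cells alone, at 3.54. Peaks do not tell the parental copies apart.

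Host genes of small RNAs had the largest share of acetylated members among the named groups. Of 11 members on that list 9 had H3K4me3 in each genotype and 7 had H3K27ac in each, although these were not the same 7. Snhg6, host of a snoRNA, had H3K4me3 at 71.6, 49.7, 30.8, and 35.3 and H3K27ac at 9.71, 14.7, 9.69, and 5.16. Snhg12, with 5 snoRNA genes, had H3K27ac at 11.3, 13.2, 20.3, and 18.8. Snhg20 and Epb41l4aos were likewise acetylated in all lists. Mir142hg (ENSMUSG00000084796.1, chromosome 11, start at 87755577, plus strand), the host of the blood cell microRNA miR-142, had H3K27ac at 62.9, 22.2, 15.0, and 12.9 and H3K4me3 at 35.7, 39.3, 21.5, and 13.1. It carried all 3 marks in all lists with a CpG ratio of 0.256, so it was not a CpG-rich start. Of the 294 members with H3K4me3 and H3K27ac in WT cells, 34 were CpG-rich (11.6%). Mir17hg, the host of the miR-17-92 cluster that promotes proliferation, held 6 microRNA genes and had H3K27ac at 5.15, 6.26, and 5.81 in the first 3 lists and none in Ep300Δ/ΔTet2-/- cells. Mir155hg, the host of the inflammatory miR-155, showed the reverse, with H3K27ac in Ep300Δ/ΔTet2-/- cells alone, at 4.61, and H3K4me3 in all lists at 13.1, 31.4, 19, and 20.0. Both host genes of neuronal miR-124 on the list were members: Mir124a-1hg had H3K4me3 and H3K4me1 in all lists without acetylation, and Mir124-2hg had no peak. Mirt1 stood on the list but held no annotated microRNA or snoRNA gene, and it had H3K27ac at 25.5, 17.9, 18.6, and 6.82.

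Of 4 members on the list for blood and immune cells, Lockd was the most fully marked. It starts 8.58 kb from a coding start of Cdkn1b, a cell cycle inhibitor, and had H3K4me3 at 44.3, 47.3, 33.0, and 26.7 and H3K27ac at 25.4, 20.9, 19.5, and 20.7. Hoxb5os, in the Hoxb cluster, had H3K4me3 in every list, at 5.65, 4.42, 5.91, and 7.47, and no acetylation at its start. Gm14005, known as Morrbid, which controls survival of short-lived myeloid cells, had H3K4me1 alone, in all but Ep300Δ/ΔTet2-/- cells. AW112010, an interferon-responsive transcript, had H3K4me3 in Ep300Δ/ΔTet2-/- cells alone, at 6.79. Among 8 lncRNAs of other tissues no start was acetylated in any list. Hotair, Rmst, Dlx6os1, Paupar, and Carmn had no peak at all, and Dnm3os had H3K4me1 in Ep300Δ/Δ cells alone. Lncenc1, known from embryonic stem cells, had H3K4me3 at 15.8, 13.4, 12.8, and 8.35, and Bvht, a cardiac lncRNA, had H3K4me3 in Tet2-/- and Ep300Δ/ΔTet2-/- cells at 6.80 and 8.37.

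**Figure D3:**
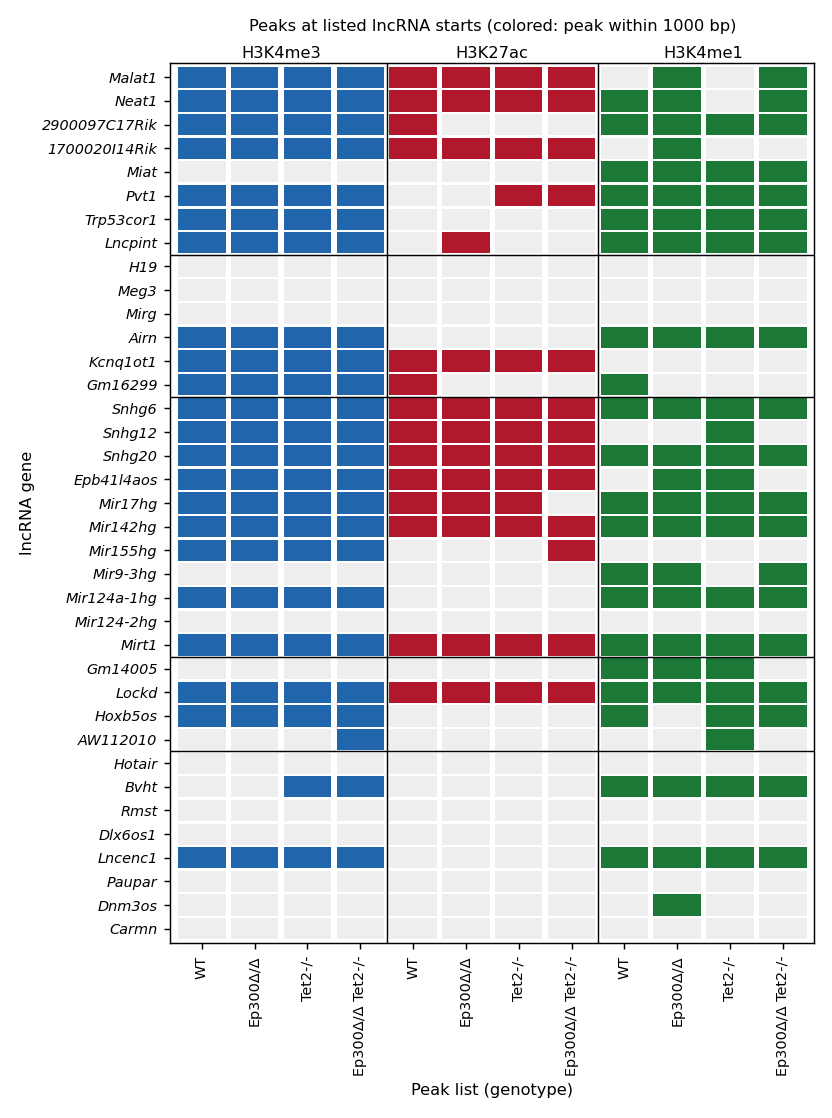
Presence (colored) or absence (gray) of a peak within 1000 bp of the start of 37 listed lncRNA genes (rows) in 12 peak lists (columns, grouped by mark). Black lines separate widely expressed, imprinted, small RNA host, blood, and other-tissue lncRNAs from top to bottom. H3K4me3 is called at 7 of 8 widely expressed and 9 of 11 host genes in each genotype, H3K27ac at 4 of 8 and 7 of 11, and no lncRNA of the last group is acetylated.

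The members with the highest H3K4me3 fold in the WT list, among the 435 with the mark in all genotypes, were Gm26901 at 90.1, Trmt61b at 88.9, 6720427I07Rik at 87.1, Epb41l4aos at 81.5, and Gm6712 at 80.0. Trmt61b here is an antisense gene (ENSMUSG00000085492.7) that carries the symbol of a tRNA methyltransferase. Of these 5 starts 4 were acetylated in every list, and Gm6712 lacked H3K27ac in Ep300Δ/Δ cells alone, with 8.40, 7.88, and 8.83 in the other lists. Such values were unusual for the group. The median H3K4me3 fold of marked members in the WT list was 13.2 (quartiles, 6.71 and 29.3), while that of marked coding starts was 44.2, and the H3K27ac medians were 7.33 and 13.4.

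From WT to Ep300Δ/Δ cells, 147 of 420 acetylated members lost H3K27ac, that is, they had a peak in the first list and none in the second (35.0%; 30.4% to 39.8%). Among all acetylated gene starts 10.0% did. From Tet2-/- to Ep300Δ/ΔTet2-/- cells, 100 of 364 members lost it (27.5%; 22.9% to 32.4%), against 11.6% of all starts. Gains were fewer. Of 301 members acetylated in Ep300Δ/Δ cells, 28 had no peak in WT cells (9.30%; all starts, 3.71%), and of 301 in Ep300Δ/ΔTet2-/- cells 37 had none in Tet2-/- cells (12.3%; all starts, 4.46%). On both backgrounds the members were thus called lost and gained more often than gene starts in general. With a −log10 q of at least 5, gains on the WT background fell to 7 members (3.35%; all starts, 1.68%). The excess of losses over gains depended on the length of the lists. With the 18327 strongest H3K27ac peaks of each genotype by −log10 q, 81 members lost and 42 gained H3K27ac on the WT background, whereas on the Tet2-null background 45 lost and 69 gained it.

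Calls also differed between genotypes with the same Ep300 status. From WT to Tet2-/- cells, 110 of 420 members lost H3K27ac (26.2%; all starts, 8.31%) and 54 of 364 gained it (14.8%; all starts, 5.20%). From Ep300Δ/Δ to Ep300Δ/ΔTet2-/- cells, 62 lost and 62 gained it, 20.6% of 301 in either direction, against 9.44% and 5.45% of all starts. WT and Ep300Δ/ΔTet2-/- cells each enter 2 of these 4 comparisons, and so do the other genotypes, so that the comparisons share lists.

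Members lost H3K4me3 in smaller shares than H3K27ac in all 4 comparisons, whereas the share that gained it was the larger of the pair from WT to Ep300Δ/Δ and from WT to Tet2-/- cells. On the WT background 76 of 544 members lost H3K4me3 after Ep300 deletion (14.0%; all starts, 2.32%) and 62 of 530 gained it (11.7%; all starts, 4.0%), and on the Tet2-null background 76 of 575 lost it (13.2%; all starts, 2.53%) and 46 of 545 gained it (8.44%; all starts, 2.47%). The net change was a decrease at members on both backgrounds, by 14 and 30 starts, and an increase at coding starts, by 250 and 54. From WT to Tet2-/- cells 58 members lost it (10.7%; all starts, 2.16%) and 89 gained it (15.5%; all starts, 3.12%), and from Ep300Δ/Δ to Ep300Δ/ΔTet2-/- cells 44 lost it (8.30%; all starts, 3.10%) and 59 gained it (10.8%; all starts, 2.31%). H3K4me1 was the mark for which members were closest to other starts. From WT to Ep300Δ/Δ cells 238 of 1150 lost it (20.7%; all starts, 13.7%) and 153 gained it (14.4%; all starts, 13.5%), and from Tet2-/- to Ep300Δ/ΔTet2-/- cells 188 lost it (16.4%; all starts, 12.4%) and 184 gained it (16.1%; all starts, 15.9%). With Tet2 absent instead of present, 190 lost it among cells with intact Ep300 (16.5%; all starts, 15.5%) and 188 gained it (16.4%; all starts, 12.5%). Among cells with deleted Ep300 the numbers were 134 lost (12.6%; all starts, 12.7%) and 213 gained (18.6%; all starts, 13.3%).

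**Figure D4:**
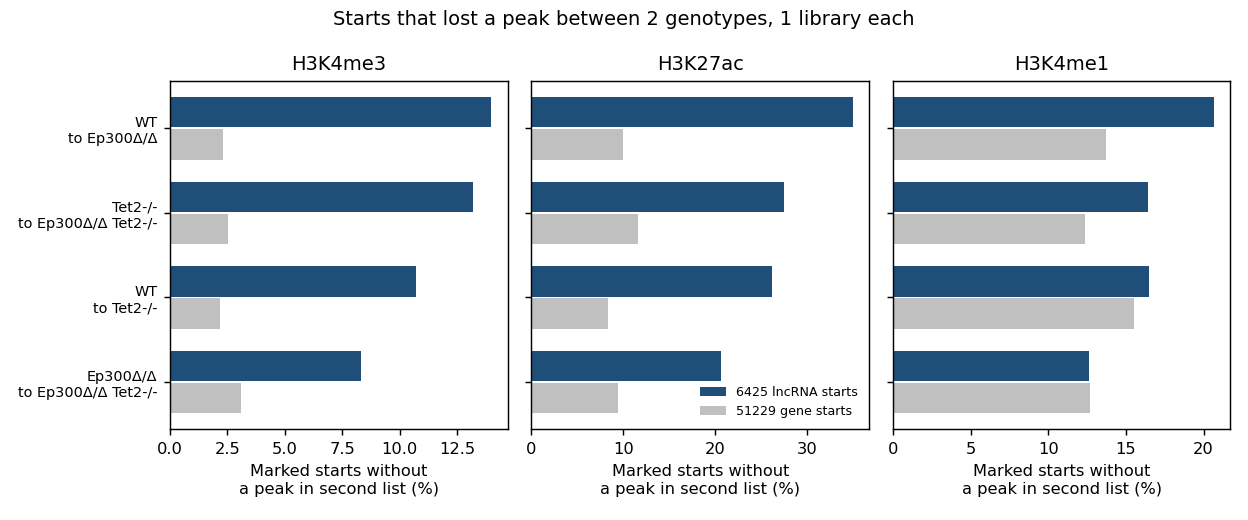
Starts with a peak in the first genotype and none in the second, as a share of starts with a peak in the first, for 6425 lncRNA starts (dark) and all 51229 autosomal gene starts (gray), 3 marks (panels) and 4 comparisons (rows), 1 library per genotype. The dark bars are the longer ones for H3K27ac (35.0% against 10.0% in the top row) and H3K4me3 in every comparison, while for H3K4me1 the bars nearly meet in the lower rows.

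Members' H3K27ac and H3K4me3 peaks were weaker than those of all starts, and weak peaks of these marks were lost most often. For H3K4me1 the members' median fold in WT cells was 5.07, against 4.99 for all starts. When all gene starts acetylated in WT cells were ranked by fold and divided into 4 equal parts, 52.4% of the acetylated members fell in the weakest part and 9.76% in the strongest. Within the weakest part, 57.3% of members lost H3K27ac after Ep300 deletion (50.4% to 63.9%), against 34.5% of all starts there (32.8% to 36.3%), and in the next part 16.3% (9.82% to 24.9%) against 4.75% (4.01% to 5.60%). In the 2 strongest parts 2 of 55 and 2 of 41 members lost it (3.64% and 4.88%), against 0.555% and 0.452% of all starts, but with so few losses the members' intervals (0.443% to 12.5% and 0.596% to 16.5%) overlapped those of all starts (0.318% to 0.90% and 0.241% to 0.771%). On the Tet2-null background the weakest part again differed, at 49.2% (41.8% to 56.6%) against 36.5% (34.8% to 38.4%), while in the next part the intervals overlapped, at 9.76% (4.31% to 18.3%) against 8.55% (7.54% to 9.65%). In the 2 strongest parts there, 0 of 55 and 1 of 42 members lost it (up to 6.49% and 12.6% by the exact upper limits), against 1.08% and 0.287% of all starts. Members and other starts were not matched for fold within a part. For H3K4me3, where 69.3% of the members lay in the weakest part of the WT list, all 76 members that lost the mark on the WT background came from that part, as did 331 of the 357 losses over all starts. In that part 20.2% of members (16.2% to 24.6%) and 8.61% of all starts (7.74% to 9.54%) lost it.

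**Figure D5:**
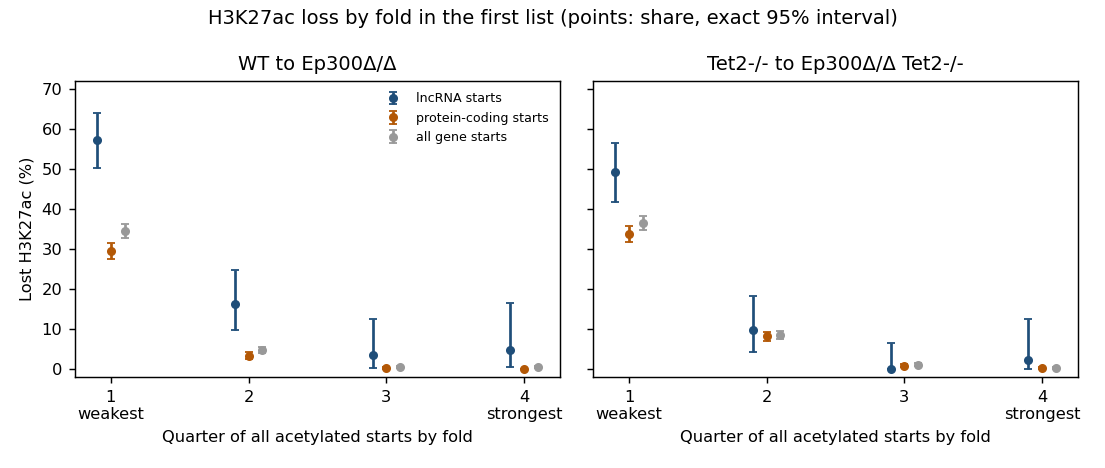
Share of acetylated starts that lost H3K27ac after Ep300 deletion on the WT (left) and the Tet2-null (right) background, by part of the first list when all acetylated gene starts are ranked by fold into 4 parts. Points are lncRNA, protein-coding, and all gene starts with exact 95% intervals that cover counting error only. In the weakest part the lncRNA points lie above the others, at 57.3% on the left and 49.2% on the right.

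Acetylated members without H3K4me3 at the same start lost H3K27ac in a larger share than those with it. On the WT background, 71 of 294 members with H3K4me3 lost H3K27ac (24.1%; 19.4% to 29.5%) and 76 of 126 members without it did (60.3%; 51.2% to 68.9%). On the Tet2-null background these were 45 of 280 (16.1%; 12% to 20.9%) and 55 of 84 (65.5%; 54.3% to 75.5%). Coding starts showed the same order, with 6.86% and 75.0% on the WT background and 9.83% and 73.7% on the Tet2-null background. All gene starts did too, with 7.89% and 68.2% on the WT and 10.2% and 70.9% on the Tet2-null background. With H3K4me3, members were thus above coding starts and all starts, and without it their intervals overlapped those of both. The other marks mostly stayed where H3K27ac was lost: of the 71 members with H3K4me3 in WT cells, 56 still had it in Ep300Δ/Δ cells, and of the 76 without it 67 had H3K4me1 there. Over all gene starts that lost H3K27ac, 824 of 876 with H3K4me3 still had it, a larger share than at the members, and 215 of 281 without it had H3K4me1, a smaller one. Acetylation at the nearest coding start was mostly called in both genotypes. Of 74 members that lost H3K27ac on the WT background beside an acetylated coding start, that start lost it too in 5 cases (6.76%; 2.23% to 15.1%), and on the Tet2-null background in 6 of 54 (11.1%; 4.19% to 22.6%). Beside members that kept H3K27ac, the coding start lost it in 6 of 165 cases (3.64%; 1.35% to 7.75%) and 12 of 158 cases (7.59%; 3.99% to 12.9%), with intervals that overlapped those beside members that lost it. Of all acetylated coding starts, 7.68% and 10.2% lost it.

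The losses on the 2 backgrounds, which share no list, had 41 members in common, 27.9% of those lost on the WT and 41.0% of those lost on the Tet2-null background. Over all gene starts 327 were in common, 28.3% and 25.3%. Of the 41 members, 37 had H3K4me1 in WT cells, 35 had it in all genotypes, and 21 had no H3K4me3 in any. Gm29264 (ENSMUSG00000100465.1, chromosome 5, 149234816 to 149247682, minus strand) stood apart in strength: its H3K27ac fold was 26.8 in WT and 19.2 in Tet2-/- cells, with no peak in either list with deleted Ep300. It starts 17.1 kb from a coding start of Alox5ap, an activator of leukotriene synthesis. H3K4me3 stayed at this start, at 25.2, 5.64, 12.5, and 4.44, and so did H3K4me1. The next by WT fold were Gm31450 near Inhba, with H3K27ac at 10.4 in WT and 6.67 in Tet2-/- cells, 1810006J02Rik near Pam (10.2 and 5.67), Gm37915 near Mfsd9 (9.98 and 4.86), and Gm4632 near Zfp957 (8.35 and 3.0). Gm37915 kept H3K4me3 in all lists and had no H3K4me1, whereas the other 3 kept H3K4me1 in all lists and had no H3K4me3.

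H3K27ac was gained on both backgrounds at 5 members: Gm36208, Gm48671, CT025659.1, Gm30411, and E130018N17Rik. These were 17.9% of those gained on the WT and 13.5% of those gained on the Tet2-null background, near the shares over all gene starts, where 69 were in common (17.3% and 15.0%). All their folds were low, between 3.08 and 6.71. Gm36208, in Ppm1h on the opposite strand, had 3.70 in Ep300Δ/Δ and 6.71 in Ep300Δ/ΔTet2-/- cells and H3K4me3 and H3K4me1 in every list. Opposite changes were seen as well: 6 members lost H3K27ac on the WT and gained it on the Tet2-null background, and 4 did the reverse. The 6 were 4.08% of the losses and 16.2% of the gains concerned (all starts, 7.95% and 20.0%), and the 4 were 14.3% of the gains and 4.0% of the losses (all starts, 19% and 5.88%).

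H3K27ac and H3K4me1 in all genotypes without H3K4me3 in any were found at 15 members, the constant starts of the enhancer type (0.233%; 0.131% to 0.385%; all starts, 0.0664%; 0.0460% to 0.0927%). The strongest were Gm33370 and Gm8013, which start from opposite strands with overlapping windows 75.5 and 76.4 kb from a coding start of Bmp2k and share the same peaks, so they are 1 region. Its H3K27ac stood at 18.5, 7.50, 6.29, and 5.41 and its H3K4me1 at 18.1, 16.0, 9.78, and 8.82. Gm40304 starts inside Rbpj, which encodes the DNA-binding factor of Notch signaling, on the opposite strand, and had H3K27ac at 13.8, 6.38, 7.0, and 8.26. Gm35202 near Ggta1 and Gm29336 near Arl4c followed, at 12.5 and 11.5 in the WT list.

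Acetylation at some members followed Tet2 status. It was present in both lists without Tet2 and in neither other list at 16 members, 13 of which had H3K4me3 in WT cells. These were 3.13% of the 511 members acetylated in any list (1.80% to 5.04%), against 0.827% of such gene starts of all types (0.675% to 1.00%). Members also exceeded all starts for H3K27ac in a single list. The shares were 14.9% against 4.22% for WT, 3.13% against 1.16% for Ep300Δ/Δ, 6.07% against 2.34% for Tet2-/-, and 3.13% against 1.24% for Ep300Δ/ΔTet2-/- cells. The excess was thus not limited to patterns that followed Tet2 status. Of the 16 members, Gm40190 was the strongest in the Tet2-/- list. It had H3K27ac at 8.53 in Tet2-/- and 5.51 in Ep300Δ/ΔTet2-/- cells, H3K4me3 in all lists, and a CpG ratio of 0.939. Gm31107 near Nefl (7.69 and 4.60), 1700067G17Rik near Sh3bp4 (6.38 and 6.46), and Gm43568 near Fnbp1l (5.72 and 7.11) also had H3K4me3 in all lists, whereas Gm31219 (6.62 and 6.05) had none. The reverse, H3K27ac in WT and Ep300Δ/Δ cells alone, was found at 18 members (3.52%; 2.1% to 5.51%; all starts, 1.57%; 1.35% to 1.80%). Gm17088, inside Etv6, a repressor needed by hematopoietic stem cells, had 10.9 and 6.19 there, with H3K4me1 in all lists and H3K4me3 in none, and Gm16553 (10.8 and 6.24) and Gm47533 (7.18 and 3.31) had the same marks. At 2310031A07Rik (7.90 and 6.04) H3K4me3 was present in every list.

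Bloodlinc (ENSMUSG00000087330.1, chromosome 11, 102375549 to 102377020, minus strand), an erythroid lncRNA, was the one of the 5 named members of this group whose H3K4me3 followed as well. Its H3K27ac fold was 7.91 in WT and 3.03 in Ep300Δ/Δ cells, its H3K4me3 fold 6.28 and 2.96, and neither mark had a peak in the other 2 lists. H3K4me1 was at 3.61, 3.90, and 1.91 in WT, Ep300Δ/Δ, and Ep300Δ/ΔTet2-/- cells. It starts 11.7 kb from a coding start of Slc4a1, the anion exchanger of red cells, whose own start had H3K4me3 at 29.0 in WT, 17 in Ep300Δ/Δ, and 8.78 in Ep300Δ/ΔTet2-/- cells and no peak in Tet2-/- cells. Of 9 erythroid genes, a list made after these values were seen, 6 had H3K4me3 in WT, 6 in Ep300Δ/Δ, 5 in Tet2-/-, and 6 in Ep300Δ/ΔTet2-/- cells, and H3K27ac was present at 6, 6, 4, and 6. The part of erythroid cells in the Bloodlinc calls was not tested.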

How the data were processed

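ChIP-Seq peak lists of Lin- bone marrow cells were analysed, 12 of the 20 samples of the series. The other 8, for H3 and H3K27me3, were not analysed here. Groups follow the labels, whose H3Kme1 and H3Kme3 were read as H3K4me1 and H3K4me3 from the antibodies in the methods. The authors used cutadapt 1.15 for trimming, BWA 0.7.13 for alignment to mm10, and Picard for duplicates. They filtered by mapping quality and blacklist. Peaks were called by MACS2 2.1.1.20160309 against H3 and kept where seen in pseudo-replicates. The labels call the libraries single-end and the methods paired-end. The deposited columns used were the authors' fold enrichment over H3 (a ratio) and their −log10 q-value; the −log10 p-value was not used. The methods state q under 0.05, but each list held 36 to 4372 peaks above it. No spike-in scaling is described, depth is unknown, and a region just under the threshold counts as absent. Counts of marked starts can therefore depend on list length, although longer lists did not always hold more of them.

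Starts came from GENCODE M21 and sequence from GRCm38.p6, the assembly called mm10. A mark was present where at least 1 bp of a peak overlapped the window, and the highest fold was kept. Starts with a peak in the first list only were lost, in the second only gained. The background was all 51229 autosomal gene starts. Members and lists were chosen with earlier results of these data known. Named genes were members of 5 lncRNA lists and, by fold in 1 list, up to 5 members each with H3K4me3 in all genotypes, with H3K27ac lost or gained on both backgrounds, with constant H3K27ac and H3K4me1 without H3K4me3, and with H3K27ac following Tet2 status. Genes of the erythroid list, Slc4a1 among them, and the comparison with the nearest coding start were chosen after values were seen. Overlap code was tested on simulated data against bedtools 2.31.1. Python 3.11.15, numpy 2.4.6, pandas 2.3.3, scipy 1.17.1, and matplotlib 3.10.9 were used.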

Additional observations from a re-analysis of the deposited data

Results flagged for a closer look

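The net change of members with H3K4me1 on loss of Tet2 had opposite signs on the 2 Ep300 backgrounds: it was -2 from WT to Tet2-/- cells, where 190 members lost and 188 gained the mark, and 79 from Ep300Δ/Δ to Ep300Δ/ΔTet2-/- cells, where 134 lost and 213 gained it. Over all autosomal gene starts the signs were opposite as well, at -528 and 116. With 1 library per genotype this difference was not tested. The Ep300Δ/Δ list had the fewest H3K4me1 peaks of the 4 (90738).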

How the results depend on the processing

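Of 120 counts under 12 alternatives, 105 stayed within 1.5 times the reported value, and 15 did not. When peaks below the median fold of their list were dropped, members with H3K4me3, H3K27ac, and H3K4me1 in WT cells numbered 233, 234, and 704, those with H3K4me3 and H3K27ac in all genotypes 70, and those that lost H3K27ac 92 on the WT and 64 on the Tet2-null background. With lists of equal size, 81 and 45 lost H3K27ac on the 2 backgrounds, 69 gained it on the Tet2-null background, and 59 had H3K27ac and H3K4me1 without H3K4me3 in WT cells. With lincRNA genes alone, which are fewer, 96 and 64 lost it, 22 gained it on the Tet2-null background, and 67 had the enhancer combination. With a −log10 q of at least 5, 7 gained it on the WT background. As shares, members lost H3K27ac more often than all gene starts in each alternative computed for both, by 27.4% against 7.18% on the WT background and 16.2% against 8.31% on the Tet2-null background with lists of equal size. No paired analysis was possible because each genotype and mark had 1 library. Of the alternatives, peaks with q under 0.05 and windows without a start of another gene type were chosen after seeing the data. Depth is unknown, so a missing peak is not evidence of a missing mark.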

Other observations

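Acetylation limited to WT cells, a group outside the reported comparisons, was the most frequent pattern of H3K27ac in a single list. The WT list was also the longest for this mark, with 29659 peaks against 18327 to 24539. The pattern was found at 76 of 511 members acetylated in any list (14.9%; 11.9% to 18.3%), against 4.22% of such gene starts of all types (3.88% to 4.59%), where it was likewise the most frequent of the 4. These members had a median fold of 4.63, against 11.3 in the WT list for the 221 members acetylated in all genotypes. Of the 76 starts, 70 had H3K4me1 in WT cells and 58 had it in all 4 genotypes, while 44 had no H3K4me3 in any. Of the 221 starts, 192 had H3K4me3 in WT cells and 16 had it in no genotype.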
